A study of Saccharomyces cerevisiae with 24 samples.

Results

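The responses of budding yeast to 2 agents that damage DNA in different ways were set against each other, methyl methanesulfonate (MMS), which methylates bases, and bleomycin, which breaks DNA strands. Of the 24 arrays of the series, 12 enter this comparison. These are 3 arrays of MMS-treated cells, the 3 control arrays whose titles carry the same dates, 3 arrays of bleomycin-treated cells, and the 3 control arrays whose titles carry the dates of those. All cells were of BY4730, a haploid laboratory strain that lacks LEU2, MET17 and URA3, and all were exposed for 120 min. MMS was at 0.12% for replicates 1 and 2 and at 0.14% for replicate 3. Bleomycin was at 0.15 U/ml for replicates 1 and 3 and at 0.1 U/ml for replicate 2. Control cells received DMSO or medium alone, and which control array received which is not given in the labels, so a solvent effect and an agent effect cannot be told apart. No day held both agents, and the doses are not matched in strength by any label. Poly(A)+ RNA was labelled from an oligo(dT) primer and hybridised to Affymetrix S98 arrays, which gave signals on the log2 scale. The MMS effect of a gene is the mean over 3 days of the MMS array minus its same-day control array, the bleomycin effect is the same for bleomycin, and the difference of effects is the MMS effect minus the bleomycin effect. It was computed for all 9275 probe sets that are not array controls, and summarised over 5656 genes, each through its brightest probe set. Nothing in the labels says that arrays of a group came from separate cultures, so p-values measure the spread between these arrays, which may be technical.

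Methylated bases are removed by base excision repair, which the glycosylase Mag1 starts, while strand breaks are joined by homologous recombination or end joining. Both kinds of damage activate the checkpoint kinases Mec1, Rad53 and Dun1, which relieve Crt1 repression of the ribonucleotide reductase genes and of HUG1 and so raise the supply of deoxyribonucleotides. MMS also alkylates proteins and thiols, and the transcription factors Yap1 (redox and drug defence), Rpn4 (proteasome), Hsf1 (chaperones) and Gcn4 (amino acid synthesis) are known to respond to such stress.

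Signals at the 5′ ends of control transcripts differed between the groups of arrays, and their values come before the results. The array carries probe sets for the 5′ part, the middle and the 3′ part of ACT1, the actin gene. The ACT1 5′ signal was 8.35, 8.76 and 8.83 in MMS replicates 1 to 3 against 5.14, 5.93 and 4.76 in their same-day controls, and 6.18, 9.42 and 9.01 in bleomycin replicates 1 to 3 against 5.24, 9.95 and 9.46 in theirs. All 3 MMS-day controls were thus low, as were bleomycin replicate 1 and its control, and the day differences of MMS (2.82 to 4.07) lay above those of bleomycin (-0.53 to 0.95). Their means differed by 3.38 (two-sided exact permutation test over 6 days, p = 0.1, the smallest that 3 days against 3 can give). The 3′ signal of ACT1 lay between 11.19 and 11.89 on the other arrays and at 9.37 on the control of MMS replicate 2. The 5′ probe set of SPT15, the TATA-binding protein gene, gave 6.83 to 7.38 in MMS arrays against 3.06 to 3.36 in their controls, and 3.99 to 5.34 in bleomycin arrays against 4.35 to 5.93 in theirs. Within groups the arrays correlated over all probe sets at 0.993 to 0.996 (MMS), 0.871 to 0.99 (MMS-day controls), 0.948 to 0.987 (bleomycin) and 0.977 to 0.988 (bleomycin-day controls). Because the MMS-day controls stand apart, most results are given beside the direct difference, MMS arrays minus bleomycin arrays without any control array. The treated arrays were not alike at the 5′ ends either. At SPT15 5′ all MMS arrays lay above all bleomycin arrays. At ACT1 5′ they lay above bleomycin replicate 1 and below replicates 2 and 3. The part of this in the direct difference was not tested. The part of the 5′ signal in the results was tested only through fits that replace the day by the ACT1 5′ class (below or above 7.5, all 24 arrays) or by the ACT1 5′ signal.

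**Figure D1:**
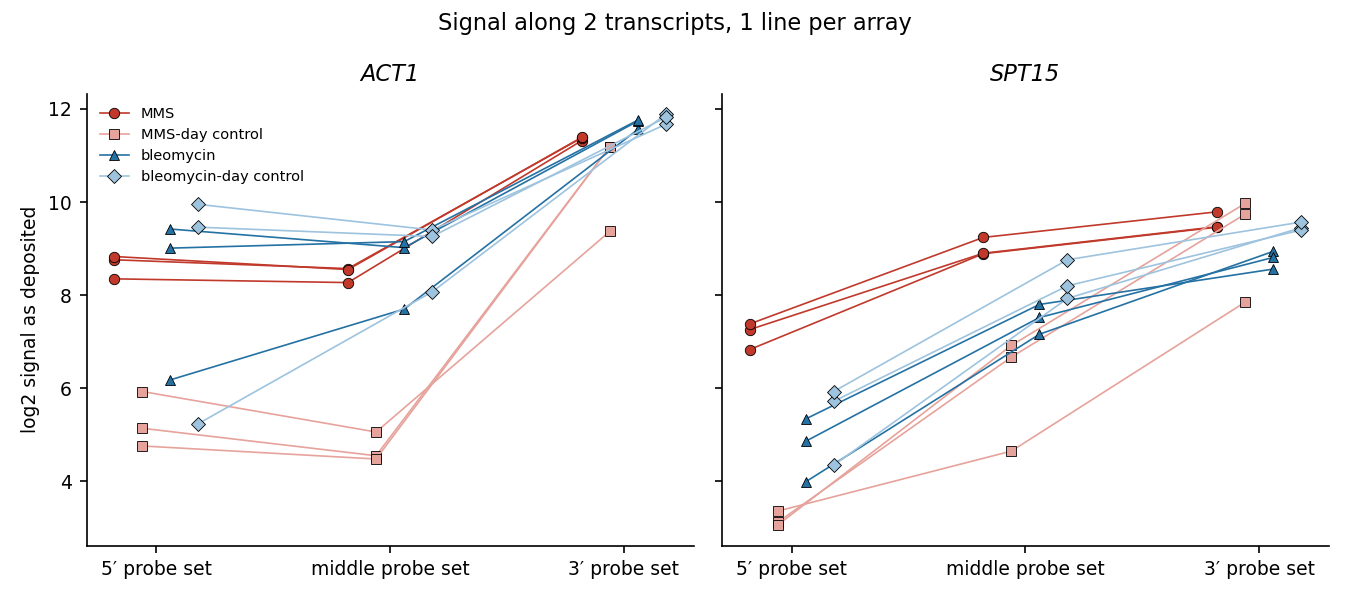
Deposited log2 signal (y axis) of the 5′, middle and 3′ probe sets (x axis) of ACT1 and SPT15, 1 line per array, 3 arrays per group. The 5′ signals of the MMS-day controls (ACT1 4.76 to 5.93) lie below those of the MMS arrays (8.35 to 8.83), and bleomycin replicate 1 (6.18) and its control (5.24) lie below the other bleomycin-day arrays.

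The MMS effect was much the wider of both. Its standard deviation over 5656 genes was 1.33, against 0.42 for the bleomycin effect, and the direct difference had 0.926. Between MMS-day and bleomycin-day controls, which received neither agent, it was 0.789, and limma called 964 of 9275 probe sets there at an adjusted p under 0.05. The part of the MMS-day controls in the width of the MMS effect was not tested. limma called the difference of effects at an adjusted p under 0.05 for 4140 of 9275 probe sets (44.6%, 2014 higher and 2126 lower) and for 2513 of 5656 genes (44.4%, 1740 higher, 30.8%, and 773 lower, 13.7%). The MMS effect alone was called for 3383 genes (59.8%, 2238 higher, 39.6%, and 1145 lower, 20.2%). The bleomycin effect alone was called for 84 genes (1.49%, 66 higher, 1.17%, and 18 lower, 0.318%), and 949 probe sets had an unadjusted p under 0.05 for it. The number of called bleomycin genes rests on single days, since the 66 and 18 became 308 and 279 without MMS replicate 2 and its control and 38 and 16 without MMS replicate 1. They became 9 and 6, 3 and 8, and 8 and 6 without bleomycin replicates 1, 2 and 3. Leaving out an MMS replicate and its control took away no bleomycin-day array. limma tested both effects of a gene against the same pooled spread, so the spread of the MMS-day arrays entered the bleomycin calls. The shares of 59.8% and 1.49% therefore do not measure how strongly cells responded to each agent. A low count of bleomycin calls, here or in a list below, does not show that bleomycin had no effect. For the difference, the 1740 and 773 became 1214 and 455 without bleomycin replicate 1, 1355 and 491 without bleomycin replicate 2, and 1931 and 1164 without MMS replicate 2. The direct difference was called for 2891 genes (51.1%, 1759 higher, 31.1%, and 1132 lower, 20%).

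Below, both measures means the difference of effects and the direct difference. Both use the same treated arrays, so agreement between them is not independent support. No day held both agents, so agent and date cannot be told apart in the direct difference. List counts are to be read beside the shares of all genes, 30.8% higher and 13.7% lower for the difference and 31.1% and 20% directly. Called in both measures in the same direction were 1795 genes (31.7%, 1250 higher, 22.1%, and 545 lower, 9.64%). The 1250 and 545 were 71.8% of the genes called higher for the difference and 70.5% of those called lower. Of the others called higher, 468 were not called directly and 22 (0.389% of all genes) went the opposite way, while of the others called lower, 228 were not called directly and 0 were called the opposite way by limma. With the ACT1 5′ class in place of the day as well, 979 genes were called the same way in all 3 fits (17.3%, 697 higher, 12.3%, and 282 lower, 4.99%). These fits share the treated arrays. All MMS arrays lay above the class limit and all their controls below it, so class and MMS cannot be told apart on those days. Across genes the effects of both agents had a Pearson correlation of 0.175 and a Spearman correlation of 0.126 (n = 5656 genes of the same arrays, which are not independent replicates).

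**Figure D2:**
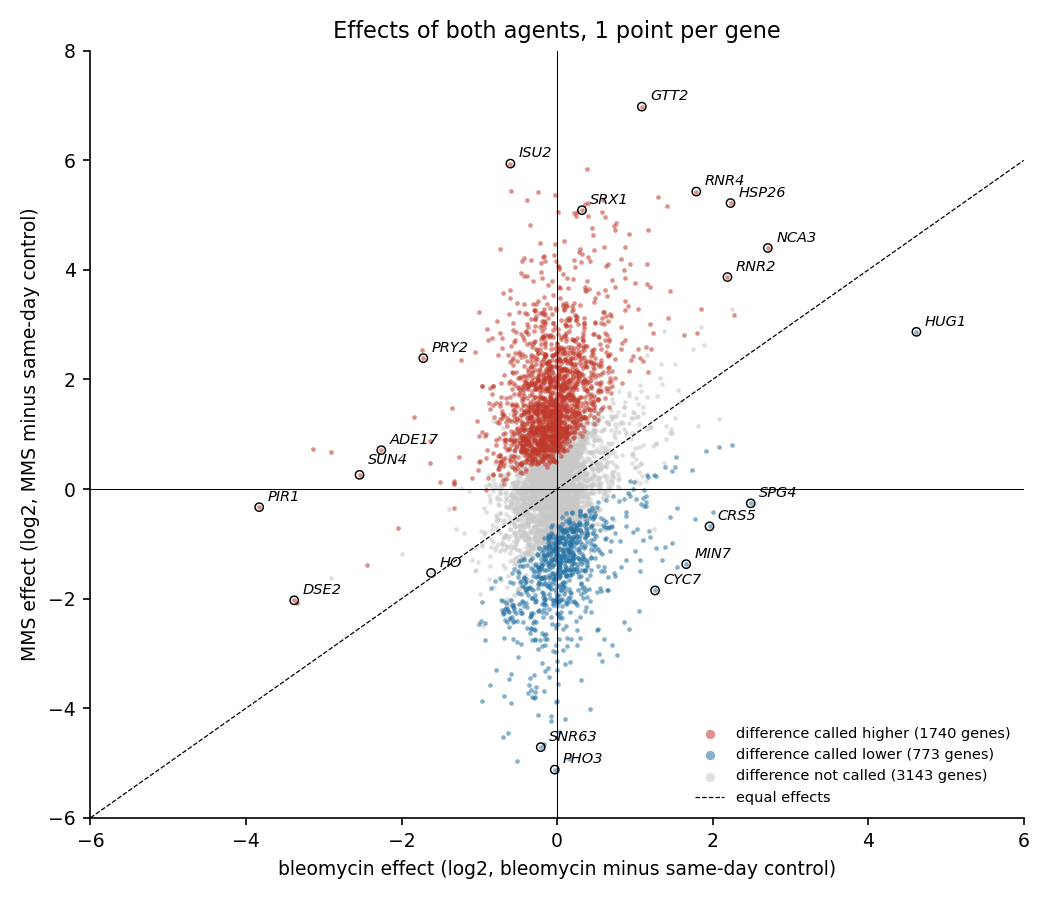
MMS effect (y axis, log2) against bleomycin effect (x axis, log2), 1 point per gene, coloured by the call for the difference of effects, with equal effects dashed. The cloud is tall and narrow, GTT2 stands at an MMS effect of 6.98, HUG1 at a bleomycin effect of 4.62 lies below the dashed line, and PIR1 at -3.83 lies left of it.

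Redox and drug defence genes of the Yap1 type held 3 of the 12 largest differences, GTT2, ATR1 and ZWF1. GTT2, a glutathione S-transferase gene, had signals of 11.28, 11.56 and 11.40 in MMS arrays against 4.38, 4.15 and 4.79 in their controls, and 5.87, 6.88 and 7.51 in bleomycin arrays against 5.17, 5.79 and 6.02 in theirs. The difference of effects was 5.89 ± 0.342 (SE; limma adjusted p = 5.73e-05), and the direct difference 4.66 (adjusted p = 0.000122). The MMS arrays lay above all 9 others. SRX1, the sulfiredoxin that restores peroxiredoxins, stood at 11.52, 11.27 and 11.95 in MMS arrays against 6.11, 7.22 and 6.14 in their controls, and at 6.15, 6.16 and 5.58 in bleomycin arrays against 5.73, 5.69 and 5.53 in theirs. Its difference was 4.78 ± 0.454 (SE) and its direct difference 5.61. AAD6, an aryl-alcohol dehydrogenase gene, was near the bottom of the scale outside the MMS arrays, with 6.49, 7.47 and 7.26 in MMS arrays against 2.02, 2.07 and 2.00 in their controls, and 2.40, 2.29 and 2.68 in bleomycin arrays against 2.17, 2.19 and 2.25 in theirs, and a direct difference of 4.62. The exporters ATR1 and FLR1 differed by 5.68 ± 0.336 and 4.48 ± 0.361 (SE), with direct differences of 4.30 and 4.01. ZWF1, which makes NADPH in the pentose phosphate pathway, differed by 4.82 ± 0.49 (SE) and directly by 2.92.

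Over the whole redox list, 26 of 40 measured genes were called higher and 2 lower, with a median difference of 2.23 against 0.34 over all genes, and 24 of the 26 were also called higher directly (median direct difference 1.52 against 0.14 over all genes). Directly, 4 of the 40 were called lower. TRX2, the cytosolic thioredoxin gene, was high on all arrays, at 11.99 to 12.12 in MMS arrays against 10.31 to 11.41 in their controls, and 11.07 to 11.59 in bleomycin arrays against 10.79 to 10.93 in theirs. Its difference of 0.64 ± 0.435 (SE) was not called (adjusted p = 0.25), while its direct difference of 0.78 was (95% interval 0.26 to 1.31, adjusted p = 0.0257). With the ACT1 5′ class in place of the day, 21 of the 40 were called higher and 3 lower, beside 15.6% and 8.61% of all genes. The 12 largest differences also held SSU1, the sulfite exporter gene, at 5.11 ± 0.581 (SE) and 3.70 directly, the uncharacterised gene YNL208W at 5.45 and 3.10 directly, and LSB5, a gene of endocytosis, at 5.39 and 3.68 directly.

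**Figure D3:**
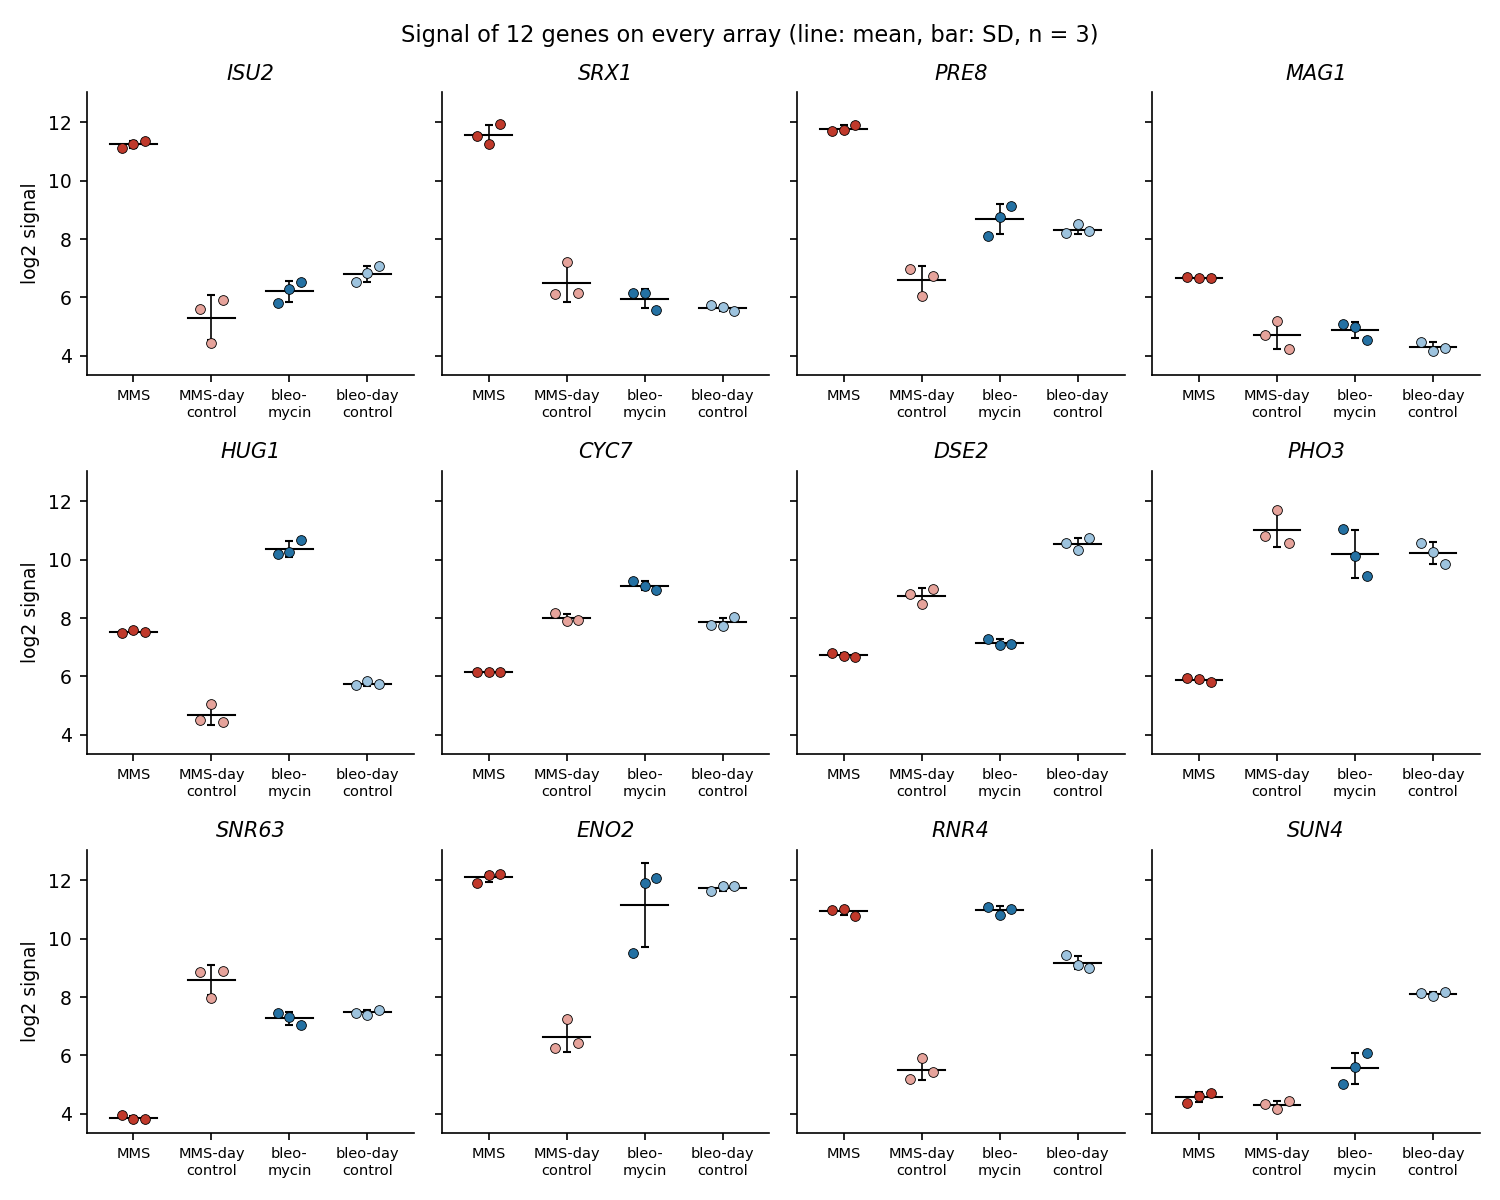
Quantile-normalised log2 signal (y axis) of 12 genes on each array, 3 arrays per group (x axis), with the mean as a line and the SD as a bar. ISU2, SRX1, PRE8 and MAG1 are highest in the MMS arrays, HUG1 and CYC7 in the bleomycin arrays, PHO3 and SNR63 are lowest in the MMS arrays, and for ENO2 and RNR4 the MMS-day controls are the low group.

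Proteasome genes were higher with MMS. Of 37 measured subunit and assembly genes, 33 were called higher for the difference and 1 lower, with a median of 2.24, and 32 were called higher in the direct difference as well (median 1.72). The MMS effect was called higher for 36 of the 37, beside 39.6% of all genes. limma called the bleomycin effect for 0 of them, with an unadjusted p under 0.05 for 2, both higher. Of all 5656 genes, 416 were higher and 308 lower with bleomycin at an unadjusted p under 0.05 in limma. PRE8, a subunit of the 20S core, had 11.70, 11.74 and 11.91 in MMS arrays against 6.99, 6.05 and 6.72 in their controls, and 8.12, 8.77 and 9.15 in bleomycin arrays against 8.21, 8.51 and 8.26 in theirs. The difference was 4.84 ± 0.395 (SE; adjusted p = 0.000136). The MMS arrays did not overlap any other group, while bleomycin arrays overlapped their controls. The base ATPases RPT3 and RPT5 differed by 4.82 and 4.04, and the core subunit PUP1 by 3.83, with direct differences of 3.41, 2.14 and 2.44. RPN4, the transcription factor of these genes, stood at 10.10, 10.30 and 10.40 in MMS arrays against 7.37, 6.47 and 7.51 in their controls, and at 7.67, 7.95 and 7.77 in bleomycin arrays against 7.17, 6.95 and 7.21 in theirs. Its difference and its direct difference were both 2.47 (adjusted p = 0.00135 and 6.81e-05), and the means of both kinds of controls differed by 0.00. With the ACT1 5′ class in place of the day, 18 of the 37 were called higher and 0 lower (0 also at an unadjusted p under 0.05 in limma), with a median of 1.60.

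Genes whose products mark, carry or fold proteins were also called higher in large numbers. Of 19 ubiquitin and shuttle factor genes, 14 were called higher and 2 lower (median 1.65), and 13 also higher directly. The fit with the ACT1 5′ class called 12 higher and 1 lower. DDI1, a shuttle protein, had 10.45, 10.47 and 10.60 in MMS arrays against 5.94, 6.52 and 5.90 in their controls, and 6.89, 6.39 and 6.98 in bleomycin arrays against 6.51, 6.44 and 6.44 in theirs, a difference of 4.10 ± 0.329 (SE) and a direct difference of 3.75. The polyubiquitin gene UBI4 differed by 3.17, the proteasome-bound deubiquitinase gene UBP6 by 2.86, and RAD23, which binds ubiquitin chains and takes part in nucleotide excision repair, by 4.18 (direct differences 2.30, 2.56 and 2.85). Of 30 chaperone genes, limma called 23 higher and 0 lower, with none lower at an unadjusted p under 0.05 either (median 1.87), and 20 were also higher directly. In the fit with the ACT1 5′ class, limma called 14 higher and 0 lower, with none lower at an unadjusted p under 0.05. The Hsp90 cochaperones STI1 and AHA1 differed by 4.50 and 4.17, and the Hsp70 gene SSA4 by 2.76, with direct differences of 2.63, 2.89 and 2.45. HSP26, a small heat shock protein gene, also rose with bleomycin. It had 10.19, 10.46 and 10.43 in MMS arrays against 5.24, 4.99 and 5.19 in their controls, and 9.08, 9.27 and 9.62 in bleomycin arrays against 6.84 to 7.5 in theirs. Its bleomycin effect was 2.23 (adjusted p = 0.0021), its difference of effects 2.99 ± 0.298 (SE) and its direct difference 1.03 (adjusted p = 0.00514), so that most of the difference of effects lay between the controls (-1.96).

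Iron-sulfur cluster assembly held the largest difference of all 5656 genes. ISU2, a scaffold on which the clusters are built in mitochondria, had 11.13, 11.24 and 11.37 in MMS arrays against 5.59, 4.43 and 5.90 in their controls, and 5.82, 6.28 and 6.53 in bleomycin arrays against 6.52, 6.84 and 7.07 in theirs. The difference was 6.54 ± 0.397 (SE; adjusted p = 5.73e-05) and the direct difference 5.04 (95% interval 4.55 to 5.53). Its paralog ISU1 differed by 5.05 ± 0.377 (SE), with a direct difference of 2.74. TIS11, which degrades mRNAs of iron-using proteins when iron is short, had 7.22 to 7.55 in MMS arrays against 2.79 to 3.07 in their controls, and 3.16 to 3.81 in bleomycin arrays against 3.52 to 3.83 in theirs, a difference of 4.72 ± 0.236 (SE) and a direct difference of 3.92. The siderophore transporter gene ARN1 differed by 4.10 and directly by 2.98. Of the 33 genes of this list, 24 were called higher and 1 lower (median 1.93), and the same counts, 24 and 1, were called directly in the same direction. With the ACT1 5′ class in place of the day, 13 were called higher and 1 lower.

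Amino acid synthesis genes, many of them targets of Gcn4, were called higher with MMS for 35 of 55 and lower for 4. The shares of all genes were 39.6% and 20.2%. The bleomycin effect was called lower for 1, with 14 lower and 2 higher at an unadjusted p under 0.05 in limma. Of all 5656 genes, 308 were lower and 416 higher with bleomycin at that threshold. limma called the difference higher for 34 and lower for 0, with none lower at an unadjusted p under 0.05 (median 1.56). Of the 34, 28 were also higher directly. Over all 55 genes the median MMS effect was 1.17 and the median bleomycin effect -0.35. Directly, 5 of the 55 were called lower. In the fit with the ACT1 5′ class, limma called 13 higher and 0 lower (2 lower at an unadjusted p under 0.05), beside 15.6% and 8.61% of all genes, with a median of 0.72. ARG4, of arginine synthesis, had 10.74, 10.58 and 10.82 in MMS arrays against 5.92, 5.57 and 6.20 in their controls, and 7.21 to 8.12 in bleomycin arrays against 7.90 to 8.05 in theirs. The difference was 5.17 ± 0.347 (SE; adjusted p = 8.7e-05), and 3.10 directly. HIS1, the first enzyme of histidine synthesis, was called in opposite directions by both agents. It stood at 9.70, 9.57 and 9.66 in MMS arrays against 8.23, 7.99 and 8.28 in their controls, and at 8.14, 7.66 and 7.88 in bleomycin arrays against 9.39, 9.19 and 9.14 in theirs, effects of 1.48 (adjusted p = 0.000398) and -1.35 (adjusted p = 0.0218), with a direct difference of 1.75. HIS4, another enzyme of that pathway, had an MMS effect of 2.53 and a bleomycin effect of -1.74 that was not called (adjusted p = 0.0738), and differed by 4.27 ± 0.521 (SE) and directly by 1.92. Of 27 sulfur amino acid genes, limma called 13 higher and 0 lower, with none lower at an unadjusted p under 0.05 (median 0.95), and 7 were also higher directly. Directly, 3 of the 27 were called lower. The 13 became 7 without bleomycin replicate 1 or 2. The methionine permease gene MUP1 differed by 3.34 and MET2, of methionine synthesis, by 2.19, with direct differences of 2.30 and 2.12. The strain lacks MET17, an enzyme of the same pathway, on all arrays.

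**Figure D4:**
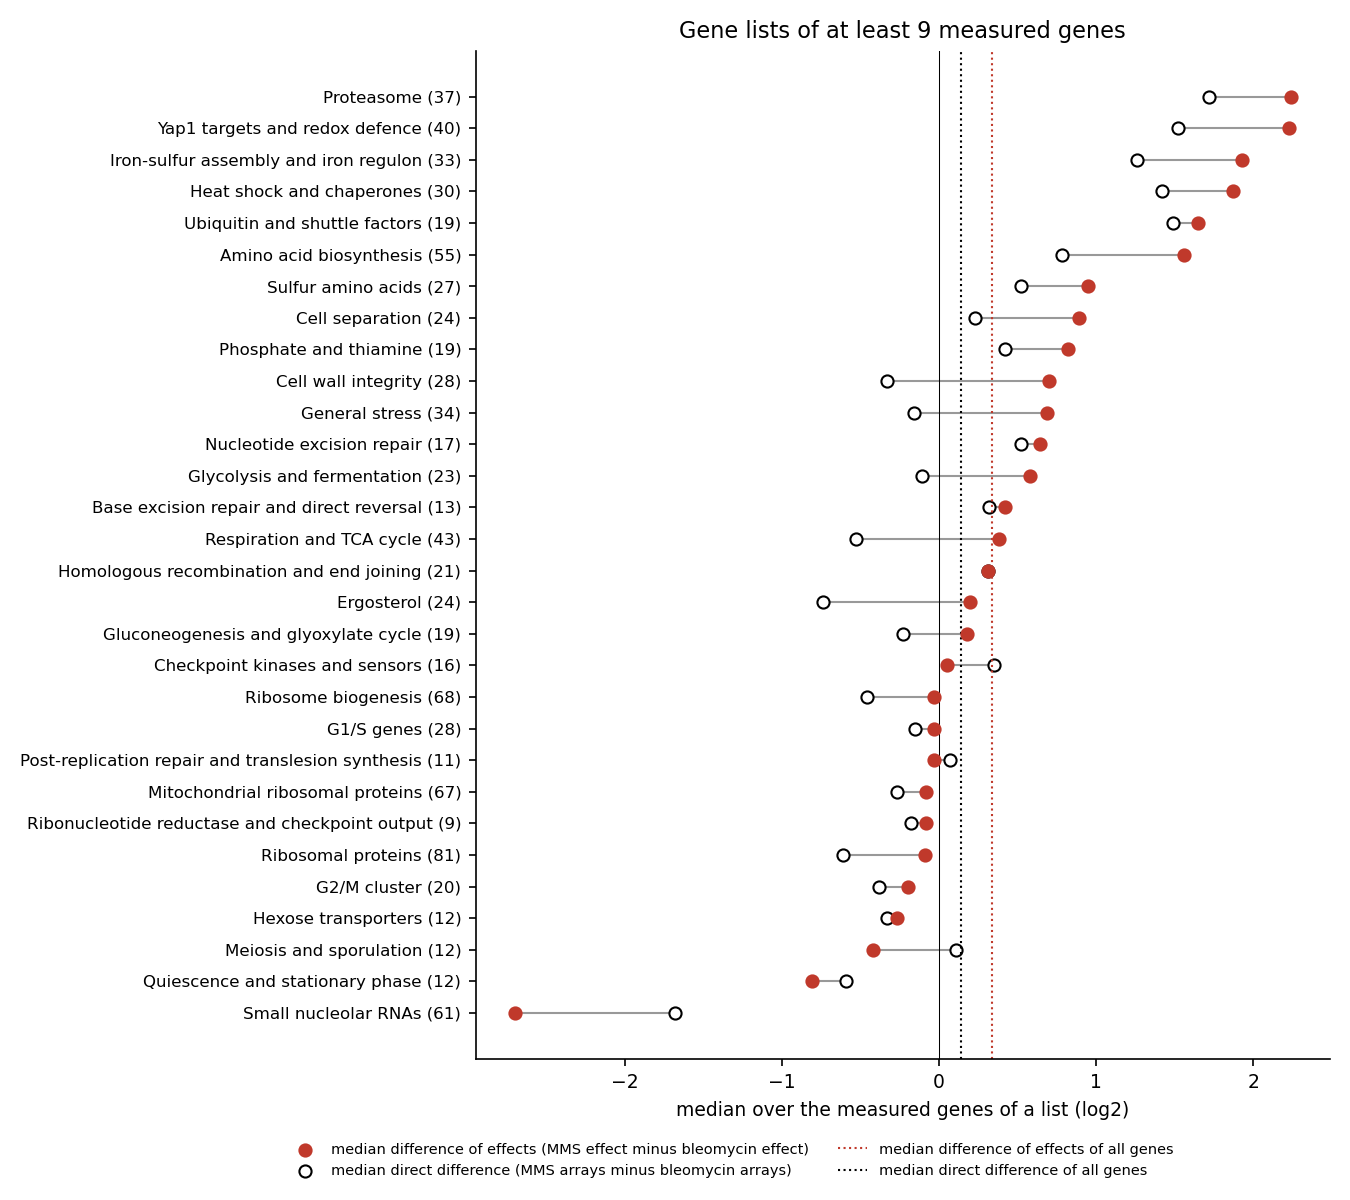
Median difference of effects (filled) and median direct difference (open) of each gene list with at least 9 measured genes (number in brackets), on a log2 axis, with the medians over all genes dotted. The proteasome (2.24 and 1.72) and redox (2.23 and 1.52) lists lie farthest right on both measures, the small nucleolar RNAs (-2.70 and -1.68) farthest left, and the general stress, cell wall and glycolysis lists have a negative direct median.

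Some checkpoint output genes had the larger effect with bleomycin. HUG1, a small inhibitor of ribonucleotide reductase and a standard reporter of the Mec1 and Rad53 pathway, had 7.49, 7.58 and 7.53 in MMS arrays against 4.51, 5.06 and 4.43 in their controls, and 10.18, 10.26 and 10.67 in bleomycin arrays against 5.70, 5.83 and 5.73 in theirs. Both effects were called, 2.87 for MMS (adjusted p = 1.54e-05) and 4.62 for bleomycin (adjusted p = 4.9e-05). The difference was -1.75 ± 0.309 (SE; adjusted p = 0.0027), and -2.84 directly, with the 3 arrays of each agent apart from all others.

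The reductase genes varied among themselves. RNR3, the damage-induced large subunit, had 5.93, 5.76 and 5.77 in MMS arrays against 5.02, 5.33 and 4.79 in their controls, and 6.04, 6.98 and 7.39 in bleomycin arrays against 4.64, 4.77 and 4.76 in theirs. Its difference of -1.31 ± 0.364 (SE; adjusted p = 0.0182) was no longer called without bleomycin replicate 2 (-1.25, adjusted p = 0.0644) or replicate 3 (-1.03, adjusted p = 0.0748), its direct difference was -0.99 (adjusted p = 0.0368), and its probe set is of a kind that several transcripts can share. RNR1, the main large subunit, differed directly by -1.63 (adjusted p = 0.000303), with 6.48, 6.39 and 6.30 in MMS arrays against 7.87, 7.90 and 8.29 in bleomycin arrays, while its difference of effects of -0.62 ± 0.322 (SE) was not called (adjusted p = 0.146). For the small subunits RNR2 and RNR4 no direct difference between the agents was detectable. RNR4 had 10.79 to 11.02 in MMS arrays against 5.18, 5.90 and 5.45 in their controls, and 11.10, 10.81 and 11.01 in bleomycin arrays against 9.44, 9.11 and 9.00 in theirs. Its difference of effects, 3.64 ± 0.335 (SE; adjusted p = 0.000199), thus lay between the controls, and its direct difference was -0.03 (95% interval -0.48 to 0.41). RNR2 likewise differed by 1.68 ± 0.348 (SE), but directly by -0.18 (95% interval -0.64 to 0.27). SML1, the reductase inhibitor that checkpoint kinases remove, differed by 3.24 in effects and by -0.09 directly. DUN1, the kinase upstream of these genes, had a difference of -1.07 ± 0.346 (SE; adjusted p = 0.0329) and a direct difference of -0.17 (95% interval -0.57 to 0.22). Its call was lost without MMS replicate 1 (-1.16, adjusted p = 0.0576) or without bleomycin replicate 1, 2 or 3 (-0.93 to -1.24, adjusted p up to 0.117). Of the 9 genes of this list, 3 were called higher and 3 lower for the difference, and HUG1 and RNR3 were lower in both measures.

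Of 17 nucleotide excision repair genes, 8 were called higher and 1 lower, beside 30.8% and 13.7% of all genes (median 0.64 against 0.34). The 8 were also called higher directly. SSL2, the TFIIH helicase that opens DNA at lesions and promoters, had 6.40, 6.70 and 6.88 in MMS arrays against 2.95, 2.54 and 2.96 in their controls, and 3.29, 3.87 and 4.37 in bleomycin arrays against 3.68, 3.44 and 4.01 in theirs. The difference was 3.71 ± 0.31 (SE; adjusted p = 0.000143), and 2.82 directly. RAD4, the damage recognition partner of Rad23, differed by 1.89, and RAD16, of repair in silent chromatin, by 1.78, with direct differences of 1.66 and 1.76. RAD2, an incision nuclease, stood at 6.73, 6.69 and 6.70 in MMS arrays against 5.94, 5.43 and 6.02 in their controls, and at 5.68, 5.64 and 5.77 in bleomycin arrays against 5.72, 4.75 and 5.44 in theirs. Its difference of 0.52 ± 0.33 (SE) was not called (adjusted p = 0.226), while its direct difference of 1.01 was (adjusted p = 0.000664).

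Of 13 base excision and direct reversal genes, 4 were called higher and 1 lower (median 0.42), shares near the background of 30.8% and 13.7%, and 3 higher and 2 lower directly. The 4 became 2 without any 1 bleomycin replicate. MAG1, the glycosylase of methylated purines, had 6.70, 6.66 and 6.67 in MMS arrays against 4.73, 5.20 and 4.23 in their controls, and 5.09, 4.99 and 4.56 in bleomycin arrays against 4.49, 4.18 and 4.26 in theirs. The MMS arrays lay above all 9 others, and the difference was 1.38 ± 0.321 (SE; adjusted p = 0.00881), 1.80 directly and 1.91 with the ACT1 5′ class in place of the day. DDI1, described above, is transcribed from the promoter that MAG1 shares, and differed by 4.10. NTG1, a glycosylase of oxidised bases, differed by 1.60 ± 0.421 (SE; adjusted p = 0.0146) and directly by 0.75. Its call was lost without bleomycin replicate 2 (1.51, adjusted p = 0.0543) or replicate 3 (1.55, adjusted p = 0.0531).

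Recombination genes, whose products repair strand breaks, were called in both directions. Of 21 measured, 4 were called higher and 2 lower, beside 30.8% and 13.7% of all genes (median 0.31 against 0.34). The direct difference was called higher for 8 and lower for 2, beside 31.1% and 20% of all genes. The MMS effect was called higher for 10 and lower for 3, beside 39.6% and 20.2% of all genes. limma called the bleomycin effect for 0, beside 1.49% of all genes. At an unadjusted p under 0.05 in limma, 2 were higher, beside 416 higher and 308 lower of all 5656 genes. The 4 called higher for the difference became 2 without bleomycin replicate 1. RAD54, a motor protein of strand exchange, had 6.20, 6.45 and 6.18 in MMS arrays against 4.76, 5.07 and 4.99 in their controls, and 5.37, 4.80 and 4.73 in bleomycin arrays against 4.61, 3.87 and 4.19 in theirs. Its difference of 0.59 ± 0.256 (SE) was not called (adjusted p = 0.0877), and its direct difference was 1.31 (adjusted p = 0.00158). RAD52, a central gene of strand annealing, differed by 1.15 ± 0.314 (SE; adjusted p = 0.017), a call lost without MMS replicate 1 (0.99, adjusted p = 0.0652) or bleomycin replicate 1 (1.06, adjusted p = 0.068) or 2 (1.05, adjusted p = 0.0723), and directly by 1.23. The helicase gene SGS1 differed by 1.79 ± 0.366 (SE) and directly by 1.19, and RFA1, the large subunit of the single-strand binding protein, by 1.64 ± 0.309 (SE) and directly by 2.00. Of 11 post-replication repair genes, 2 were called higher and 2 lower for the difference, beside 30.8% and 13.7% of all genes, and 3 each way directly. RAD5, a ubiquitin ligase of that pathway, differed by 1.31 and directly by 0.72, and MMS2, a partner of its conjugating enzyme, by -1.68, with 6.50, 6.38 and 6.24 in MMS arrays against 7.52 to 7.89 in their controls, and 7.75 to 8.52 in bleomycin arrays against 7.60 to 7.81 in theirs, and a direct difference of -1.71. DIN7, a damage-induced mitochondrial nuclease gene, had effects of 0.91 for MMS (adjusted p = 0.00864) and 0.95 for bleomycin (adjusted p = 0.125) and a difference of -0.04 ± 0.331 (SE; adjusted p = 0.924). Of 16 checkpoint kinase and sensor genes, 2 were called higher and 3 lower for the difference (median 0.05, and -0.06 with values as deposited), beside 30.8% and 13.7% of all genes, while 7 were called higher and 1 lower directly (median 0.35). With the ACT1 5′ class in place of the day, limma called 4 of the 16 higher and 0 lower, with none lower at an unadjusted p under 0.05. Without bleomycin replicate 1 the difference was called for none of the 16.

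Genes that rose with bleomycin and fell with MMS numbered 9. They were 13.6% of the 66 genes called higher with bleomycin, while 20.2% of all genes were called lower with MMS. CYC7, the form of cytochrome c made when oxygen is low, had 6.14, 6.17 and 6.17 in MMS arrays against 8.17, 7.91 and 7.94 in their controls, and 9.27, 9.09 and 8.96 in bleomycin arrays against 7.77, 7.74 and 8.04 in theirs. The difference was -3.10 ± 0.303 (SE; adjusted p = 0.000226) and -2.94 directly, and no array of 1 agent overlapped with the other groups. GAC1, a regulatory subunit of the phosphatase Glc7 for glycogen synthesis, had 4.27, 3.91 and 3.72 in MMS arrays against 5.03, 5.70 and 5.06 in their controls, and 6.80, 6.32 and 6.52 in bleomycin arrays against 5.37, 5.13 and 5.10 in theirs. CRS5, a copper metallothionein, had 6.09, 5.88 and 5.92 in MMS arrays against 6.44, 7.00 and 6.48 in their controls, and 8.23, 7.64 and 7.49 in bleomycin arrays against 5.88, 5.78 and 5.81 in theirs. Both differed by -2.64, and directly by -2.58 and -1.82. MIN7, FMP48 and GPM2, the last a relative of phosphoglycerate mutase, differed by -3.03, -2.98 and -2.48 and directly by -3.05, -2.53 and -2.10.

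Genes that rose with MMS and fell with bleomycin numbered 5, HIS1 above, PRY2, SVS1, ADE17 and FAR1. They were 27.8% of the 18 genes called lower with bleomycin, while 39.6% of all genes were called higher with MMS. PRY2, a secreted sterol-binding protein gene, had 7.36, 7.63 and 7.72 in MMS arrays against 5.35, 4.87 and 5.32 in their controls, and 5.80, 6.77 and 6.94 in bleomycin arrays against 7.91, 8.59 and 8.17 in theirs, a difference of 4.11 ± 0.344 (SE) and a direct difference of 1.07. ADE17, of purine synthesis, differed by 2.96 and directly by 0.58, and SVS1, a cell wall protein gene, by 3.16 and directly by 1.08. For FAR1, the cyclin-dependent kinase inhibitor of the pheromone response, the treated arrays overlapped, at 5.17, 5.06 and 5.19 with MMS and 4.66, 4.84 and 5.33 with bleomycin, so that its difference of 2.50 ± 0.259 (SE) came with a direct difference of 0.19 (adjusted p = 0.421). The numbers of genes with opposite calls rest on the spread of single days. The 9 and 5 became 37 and 66 without MMS replicate 2 and its control, 4 and 4 without MMS replicate 1, and 3 and 5 without MMS replicate 3. They became 0 and 0 without bleomycin replicate 1 or 3, and 0 and 1 without bleomycin replicate 2, fits in which limma gave 583 to 627 probe sets an unadjusted p under 0.05 for bleomycin.

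Of the 66 genes called higher with bleomycin, 42 (63.6%) were called higher with MMS, beside 39.6% of all genes, and 9 (13.6%) lower, beside 20.2%. Of the 18 called lower with bleomycin, 6 (33.3%) were called lower with MMS, beside 20.2% of all genes, and 5 (27.8%) higher, beside 39.6%. No array is shared between both comparisons, but both calls rest on the same pooled spread of a gene, so they are not independent. Genes of small spread are more easily called in both. Of the 42 called higher by both, the difference was called higher for 15, lower for 3 and not called for 24, and its 95% interval lay within 1 log2 unit of 0 for 5. These numbers rest on single days too. The 42 and 6 genes called higher and lower by both agents became 186 and 131 without MMS replicate 2, 21 and 5 without MMS replicate 1, and 25 and 6 without MMS replicate 3. They became 7 and 3 without bleomycin replicate 1 or 3, and 2 and 4 without bleomycin replicate 2. ATG45, named here by that interval, had 6.73, 6.50 and 6.57 in MMS arrays against 5.26 to 5.37 in their controls, and 6.74, 6.73 and 6.22 in bleomycin arrays against 5.21, 4.89 and 5.06 in theirs, a difference of -0.22 ± 0.291 (SE) and 0.04 directly. AMS1, the vacuolar mannosidase gene, had 6.75, 6.84 and 6.80 in MMS arrays against 5.54, 5.94 and 5.48 in their controls, and 6.52, 6.48 and 6.87 in bleomycin arrays against 5.47, 5.40 and 5.44 in theirs, a difference of -0.05 ± 0.279 (SE) and 0.17 directly. For BDH2, a relative of butanediol dehydrogenase, the effects were 1.59 and 1.58, while the arrays of both agents lay apart, at 4.94, 5.04 and 5.25 with MMS and 6.24, 6.95 and 7.53 with bleomycin. HO, the mating-type switching endonuclease gene, fell with both, at 3.21, 3.29 and 3.35 in MMS arrays against 4.88, 4.58 and 4.95 in their controls, and 3.46, 3.57 and 3.43 in bleomycin arrays against 5.09, 4.91 and 5.32 in theirs. NCA3, a SUN family gene, rose with both, by 4.40 with MMS and 2.71 with bleomycin, with a difference of 1.68 ± 0.371 (SE; adjusted p = 0.0071) and a direct difference of 0.79 that was not called (adjusted p = 0.115).

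Cell separation genes, which are switched on at the end of mitosis, held 9 of the 18 genes called lower with bleomycin. Of 24 measured, the bleomycin effect was called lower for those 9 and higher for 1, beside 0.318% and 1.17% of all genes. The MMS effect was called lower for 8 and higher for 3, beside 20.2% and 39.6% of all genes. In an array of a whole culture, fewer cells in that stage and less RNA per cell cannot be told apart. DSE2, a glucanase-like gene, had 6.82, 6.69 and 6.67 in MMS arrays against 8.82, 8.48 and 8.98 in their controls, and 7.30, 7.08 and 7.11 in bleomycin arrays against 10.56, 10.34 and 10.74 in theirs. Both effects were called, -2.03 and -3.38, and the difference of 1.35 ± 0.31 (SE; adjusted p = 0.00838) was opposite in sign to the direct difference of -0.43 (adjusted p = 0.0377). EGT2 had 4.01, 4.30 and 4.11 in MMS arrays against 6.35, 5.86 and 6.42 in their controls, and 3.85, 4.19 and 3.85 in bleomycin arrays against 7.57, 7.16 and 7.15 in theirs, and the treated arrays overlapped. Its difference of 1.26 ± 0.332 (SE; adjusted p = 0.0145) lost its call without bleomycin replicate 1 (1.07, adjusted p = 0.0617). SCW11, a glucanase gene, fell by 1.38 with MMS and by 2.44 with bleomycin, and its difference of 1.05 ± 0.277 (SE) lost its call without bleomycin replicate 1 (0.92, adjusted p = 0.057) or 3 (1.04, adjusted p = 0.0509).

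PIR1, a cell wall protein gene of the same list, fell by 3.83 with bleomycin and was not called with MMS. It had 6.08, 6.46 and 6.42 in MMS arrays against 6.38, 7.15 and 6.43 in their controls, and 5.85, 5.99 and 5.91 in bleomycin arrays against 9.36, 9.96 and 9.91 in theirs. The bleomycin-day controls stood apart from 9 arrays that lay within 5.85 to 7.15, and the direct difference of 0.40 was not called (adjusted p = 0.0638). DSE1, another daughter-specific gene, had 4.01, 4.40 and 4.66 in MMS arrays against 4.13, 2.71 and 4.01 in their controls, and 2.66, 2.19 and 2.53 in bleomycin arrays against 5.85, 5.03 and 5.92 in theirs, with a difference of 3.89 ± 0.421 (SE) and a direct difference of 1.90. The chitinase gene CTS1 differed by 3.59 ± 0.875 (SE; adjusted p = 0.0107) and directly by 1.28. Its call was lost without bleomycin replicate 1 (3.40, adjusted p = 0.0526), and 1 MMS-day control stood at 5.98 beside 9.52 and 10.03. Over the list, 12 were called higher and 1 lower for the difference (median 0.89; 7 higher without bleomycin replicate 1), and 5 higher and 1 lower in both measures (median direct difference 0.23), with 2 opposite. SUN4, a septum gene, differed by 2.80 ± 0.329 (SE), but directly by -1.0 (adjusted p = 0.0166), with 4.38, 4.62 and 4.70 in MMS arrays against 4.33, 4.16 and 4.44 in their controls, and 5.01, 5.62 and 6.07 in bleomycin arrays against 8.13, 8.03 and 8.16 in theirs. Its relative SIM1 differed by 1.18 ± 0.425 (SE; adjusted p = 0.0485), a call lost without MMS replicate 1 or 3 or bleomycin replicate 1 or 2 (0.83 to 1.28, adjusted p 0.0688 to 0.176), and directly by -1.12.

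Of 20 genes of the G2/M cluster, limma called 0 higher (2 at an unadjusted p under 0.05) and 6 lower, beside 13.7% lower among all genes (median -0.20), and 5 of the 6 were also lower directly. The 6 became 1 without bleomycin replicate 3, 4 without bleomycin replicate 2, and 3 without bleomycin replicate 1 or MMS replicate 1 or 3. Of 28 G1/S genes, 4 were called each way for the difference, beside 30.8% higher and 13.7% lower among all genes. Directly, 5 were called higher and 8 lower, beside 31.1% and 20%. The 4 called lower became 9 without MMS replicate 2 and 1 without any other replicate, and the 4 called higher became 2 without MMS replicate 3 or bleomycin replicate 1 or 2. CLB1, a mitotic cyclin gene, had 3.68, 3.64 and 3.44 in MMS arrays against 4.98, 4.40 and 5.21 in their controls, and 4.89, 4.92 and 5.24 in bleomycin arrays against 5.18, 5.10 and 5.40 in theirs. Its difference of -1.06 ± 0.302 (SE; adjusted p = 0.0199) lost its call without MMS replicate 1 or 3 or any bleomycin replicate (-0.82 to -1.10, adjusted p 0.0513 to 0.0706), while the direct difference was -1.43. CLB6, an S phase cyclin gene, differed by -1.43 ± 0.245 (SE) and directly by -0.85, and MYO1, the myosin of the cytokinetic ring, by -1.82 ± 0.316 (SE) and directly by -0.91, with 3 of its 8 probe sets of the opposite sign. CLN2, a G1 cyclin gene, had a difference of 0.21 ± 0.308 (SE) that was not called (adjusted p = 0.588). The histone gene HTB2 differed by 1.33 ± 0.403 (SE; adjusted p = 0.0257), a call lost without MMS replicate 1 or 3 or bleomycin replicate 2 or 3 (1.08 to 1.25, adjusted p 0.0791 to 0.0905), and directly by -0.60.

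For several glycolysis genes and other abundant mRNAs, most of the difference of effects lay between the controls of both days. ENO2, an enolase gene, had 11.91, 12.17 and 12.21 in MMS arrays against 6.27, 7.26 and 6.42 in their controls, and 9.51, 11.90 and 12.08 in bleomycin arrays against 11.63, 11.81 and 11.82 in theirs. Its difference of 6.03 ± 0.63 (SE; adjusted p = 0.000271) was the second largest of all genes, yet the direct difference of 0.93 was not called (95% interval -0.52 to 2.39, adjusted p = 0.256). PGK1 had 12.24, 12.36 and 12.40 in MMS arrays against 8.15, 8.16 and 8.31 in their controls, and 11.19, 12.17 and 12.24 in bleomycin arrays against 11.95, 12.12 and 12.15 in theirs, with differences of 4.34 ± 0.385 (SE) and 0.47 directly. The low values stood on the MMS-day controls, and bleomycin replicate 1, an array of low ACT1 5′ signal, was the lowest bleomycin array for both genes. ENO1 and TDH3 differed by 4.04 and 3.38, and directly by -0.20 and 0.35. The probe sets of ENO2, ENO1 and TDH3 are of a kind with fewer unique probes than usual. Whether close paralogs share their signal was not tested. Over 23 glycolysis and fermentation genes, 10 were called higher and 2 lower for the difference (median 0.58), and in both measures limma called 0 higher and 1 lower (median direct difference -0.11, with 1 higher and 7 lower directly at an unadjusted p under 0.05), with a median of -1.63 between MMS-day and bleomycin-day controls. SED1, an abundant cell wall protein gene, differed by 5.65 ± 0.52 (SE) and directly by 1.49 (adjusted p = 0.125).

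**Figure D5:**
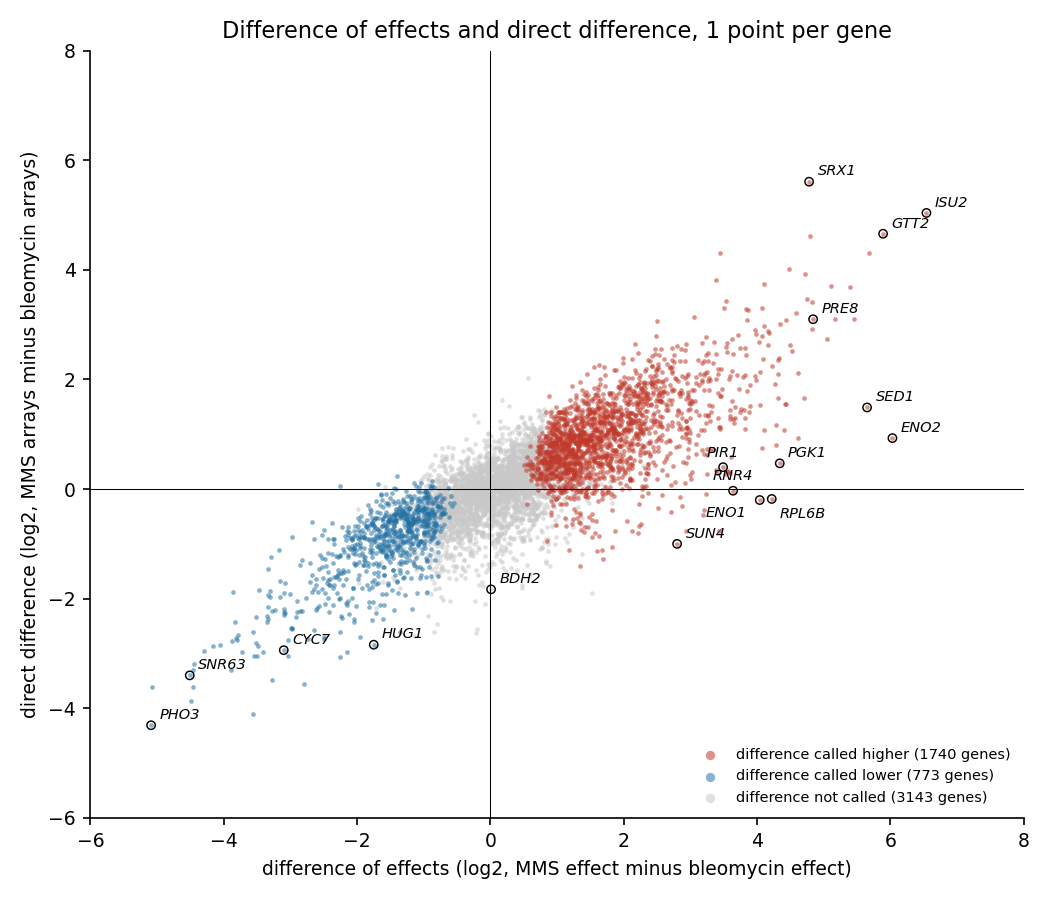
Direct difference, MMS arrays minus bleomycin arrays (y axis, log2), against the difference of effects (x axis, log2), 1 point per gene, coloured by the call for the difference of effects. ISU2 (6.54 and 5.04) and GTT2 (5.89 and 4.66) are far from 0 on both axes, while ENO2 (6.03 and 0.93), PGK1 (4.34 and 0.47) and RNR4 (3.64 and -0.03) are far from 0 on the x axis only and SUN4 (2.80 and -1.0) changes sign.

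Of 34 general stress genes of the Msn2 and Msn4 type, the MMS effect was called higher for 20 and the bleomycin effect for 9, beside 39.6% and 1.17% of all genes. The difference was called higher for 11 and lower for 7 (median 0.69), and in both measures 7 were higher and 7 lower (median direct difference -0.16). The 7 called lower for the difference became 3 without bleomycin replicate 2 and 4 without bleomycin replicate 3. GLK1, a glucokinase gene, differed by 3.82 ± 0.396 (SE) and directly by 1.30, which was not called (adjusted p = 0.0662). TFS1, an inhibitor of carboxypeptidase Y, differed by 3.75 and directly by 1.4, and the trehalase gene NTH1 by 3.55 and directly by 2.66.

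Quiescence and stationary phase genes included several with the higher effect in bleomycin. Of 12, 3 were called higher and 6 lower, beside 30.8% and 13.7% of all genes (median -0.81), with the same counts in both measures. The bleomycin effect was called higher for 5, beside 1.17% of all genes. SPG4 had 6.13, 6.12 and 6.31 in MMS arrays against 7.00, 5.40 and 6.93 in their controls, and 8.98, 9.03 and 8.76 in bleomycin arrays against 6.46, 6.03 and 6.82 in theirs. SPG1 had 4.75, 4.77 and 4.58 in MMS arrays against 4.80, 5.43 and 5.12 in their controls, and 7.19, 6.68 and 7.00 in bleomycin arrays against 5.10, 4.84 and 4.92 in theirs. For both genes the bleomycin arrays lay above all 9 others, with differences of -2.74 ± 0.468 and -2.42 ± 0.28 (SE) and direct differences of -2.74 and -2.25. The 6 called lower became 3 without bleomycin replicate 1. SNZ1, a vitamin B6 synthesis gene of the same list, went the other way, with a difference of 2.60 and 1.89 directly.

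Small nucleolar RNAs, guides for ribosomal RNA modification that carry no long poly(A) tail, were lower with MMS. Of 61, limma called 52 lower and 0 higher, with none higher at an unadjusted p under 0.05 (median -2.70), and 45 were lower in both measures (median direct difference -1.68). Directly, 1 was called higher. SNR63 had 3.95, 3.84 and 3.81 in MMS arrays against 8.85, 7.98 and 8.91 in their controls, and 7.45, 7.31 and 7.04 in bleomycin arrays against 7.46, 7.40 and 7.56 in theirs, a difference of -4.51 ± 0.343 (SE; adjusted p = 0.000112) and -3.40 directly. SNR128 had 5.37 to 5.6 in MMS arrays against 10.04, 10.03 and 10.26 in their controls, and 8.80, 9.53 and 9.59 in bleomycin arrays against 8.76, 9.73 and 9.95 in theirs. For both RNAs the MMS arrays lay below all 9 others. The MMS effect was called lower for 58 of the 61, beside 20.2% of all genes. For the bleomycin effect limma called 0, with 6 lower at an unadjusted p under 0.05, beside 308 lower among all 5656 genes. SNR72, SNR56, SNR71, SNR55, SNR50 and SNR61 differed by -3.87 to -5.07, and TLC1, the telomerase RNA, by -3.89 (-3.31 directly), with another probe set of TLC1 of the opposite sign. With the ACT1 5′ class in place of the day, 29 of the 61 were called lower and 0 higher (1 higher at an unadjusted p under 0.05 in limma).

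PHO3, a thiamine-repressed acid phosphatase gene, gave the lowest difference of all genes, with 5.95, 5.93 and 5.80 in MMS arrays against 10.80, 11.69 and 10.56 in their controls, and 11.05, 10.12 and 9.43 in bleomycin arrays against 10.58, 10.28 and 9.85 in theirs, a difference of -5.09 ± 0.407 (SE) and -4.31 directly. Several short messenger RNAs were also lower. DYN2, the dynein light chain gene, differed by -4.46 ± 0.322 (SE) and directly by -3.61. HMRA1, whose probe set several transcripts can share, including that of the expressed mating-type locus, differed by -4.45 ± 0.421 (SE) and directly by -3.19. COX7 and QCR10, small subunits of respiratory complexes, differed by -3.03 and -2.49 and directly by -2.75 and -2.73, and MRPL44, of the mitochondrial ribosome, by -3.80 and directly by -2.75. By gene length (of the R64 assembly's annotation), the shortest 1419 genes, 51 to 726 bp, had 283 called higher and 412 lower with a median of -0.18. The next length classes, from 728, 1218 and 1893 bp up, had 499, 526 and 432 called higher and 131, 98 and 132 lower, with medians of 0.49, 0.56 and 0.39. Without the small nucleolar RNAs the shortest class had 283 higher and 360 lower (median -0.10). The direct medians were -0.26 for the shortest class against 0.17, 0.28 and 0.27 for the others.

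Ribosomal protein genes, which are short and abundant, split. Of 81, 16 were called higher and 23 lower (median -0.09, and 0.22 or 0.29 with values as deposited or centred on the median), and 1 was higher and 19 lower in both measures (median direct difference -0.61). Without MMS replicate 2 the counts were 17 higher and 42 lower (median -0.71), and they were 12 to 14 higher and 12 to 15 lower without a bleomycin replicate. RPS26B had 7.57, 6.91 and 6.66 in MMS arrays against 11.35, 12.02 and 11.13 in their controls, and 10.59, 9.95 and 8.77 in bleomycin arrays against 10.66, 10.43 and 10.11 in theirs, a difference of -3.82 ± 0.47 (SE) and -2.72 directly. RPL6B had 9.49, 9.43 and 9.75 in MMS arrays against 6.66, 5.57 and 6.76 in their controls, and 8.94, 9.91 and 10.35 in bleomycin arrays against 10.56, 10.95 and 10.68 in theirs. Its difference of 4.22 ± 0.441 (SE) came with a direct difference of -0.18 (adjusted p = 0.696), and the MMS-day controls were again the low group. The 2443 probe sets that the gene table does not name had 77 called higher and 1078 lower (median -0.78), against 1896 and 956 of the 6504 with 1 gene (median 0.27), so the share of calls that were higher was 48.6% over probe sets and 68.7% with 1 probe set per gene.

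The counts of the leading lists were computed again without MMS replicate 2, whose control had the low ACT1 3′ signal, and without bleomycin replicate 1, of low ACT1 5′ signal, while the low 5′ controls of MMS replicates 1 and 3 stayed in. Without MMS replicate 2 and its control, the numbers called higher and lower were 34 and 1 for the proteasome, 28 and 5 for redox defence, 23 and 1 for chaperones, 24 and 1 for the iron-sulfur list, 15 and 2 for ubiquitin, 36 and 2 for amino acid synthesis and 0 and 54 for small nucleolar RNAs. Without bleomycin replicate 1 and its control they were 24 and 0, 24 and 1, 17 and 0, 24 and 1, 10 and 1, 25 and 0, and 0 and 49 for the same lists in the same order. In the direct difference without both treated arrays, a fit chosen after seeing the data, the numbers were 36 and 0, 29 and 4, 26 and 0, 25 and 1, 15 and 1, 32 and 7, and 2 and 47. In each of these 3 fits, more small nucleolar RNAs were thus called lower than higher, and more genes higher than lower in the other 6 lists. Without bleomycin replicate 1, the genes called higher were 25 of 55 for amino acid synthesis and 10 of 19 for ubiquitin.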

How the data were processed

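The deposited values are signals on the log2 scale, from 1.43 to 14.39 on the 12 arrays with array medians of 5.33 to 5.46, and how the authors summarised and normalised them is not stated in the sources used. Arrays carry no counts, so their number limits the precision. Of 9335 probe sets, 60 array controls were left out, and of the 9275 others the given probe table pairs 6504 with 1 gene and 328 with several and does not list 2443. Values were quantile-normalised over all 24 arrays. limma 3.58.1 (R 4.3.3) fitted the 12 arrays with 2 agent terms and the day as a fixed block, which left 4 residual degrees of freedom (prior 5.03, intensity trend), and p-values were Benjamini-Hochberg adjusted over 9275 probe sets. The median difference over probe sets was -0.07, and -0.25 with values as deposited and -0.18 after centring each array on its median.

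The pairing rests on the dates in the titles. Deviations of same-day arrays from their group means correlated at -0.144 to 0.528, above 0.1 in 4 of 6 pairs. The procedure was also run on simulated data in which every array had the same spread. The MMS-day controls spread more than the other groups, so that run cannot give the error rate of these calls. Alternatives changed 1 choice at a time, except that the ACT1 5′ class replaced the day and took in all 24 arrays together, and the direct difference was also computed without MMS replicate 2 and bleomycin replicate 1, and on other scalings, after the data were seen. Named genes were the 12 largest differences each way among called genes whose day differences do not overlap, up to 6 genes of each pattern of shared or opposite calls, up to 5 members of each list, and preset genes whatever their values. The comparison, the lists and the ACT1 limit were chosen with earlier results of these data known. HTA1 of the preset genes had no usable probe set and is not analysed here. Mean signals over the 12 arrays were 12.17 and 11.79 for the a-cell genes MFA1 and MFA2, and 7.66, 5.73 and 7.76 for STE2, STE6 and BAR1. The alpha-cell genes MF(ALPHA)1, MF(ALPHA)2, STE3 and SAG1 were at 5.11, 4.04, 3.80 and 6.46. Of the deleted genes, URA3 and MET17 were at 3.37 and 3.86, while LEU2 stood higher, at 5.44. Python 3.11.15 with matplotlib 3.10.9 drew the figures.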

Additional observations from a re-analysis of the deposited data

Results flagged for a closer look

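A group of probe sets that the comparison does not use, array controls for yeast transcripts, read higher in the MMS arrays than in their same-day controls. For the 5′ part of ACT1 the lowest MMS array lay 2.42 above the highest same-day control (means 8.65 and 5.28), and for its middle part 3.21 above (means 8.46 and 4.69). For the 5′ part of SPT15 the gap was 3.47 (means 7.15 and 3.18), and for its middle part 1.97 (means 9.01 and 6.08). The control probe set for WBP1, a subunit of oligosaccharyltransferase, gave a gap of 3.81 (means 7.15 and 3.07). Their part in the results was tested only through the fits named in the report.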

How the results depend on the processing

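The number of probe sets called for the difference, 4140, was 2655 with 1 probe set per gene, which tests fewer probe sets, 2716 with the ACT1 5′ signal as a covariate 2825 with all 24 arrays and the day kept, and 1687 with all 24 arrays and the ACT1 5′ class in place of the day, and 2581 to 4827 leaving out each replicate, lowest without bleomycin replicate 1. The 5524 for MMS were 3481 with 1 probe set per gene, 2630 with the ACT1 5′ class, and 3614 with a change of at least 1 log2 unit required. The 94 for bleomycin were 150 with 1 probe set per gene, 156 with the covariate, 229 with the ACT1 5′ class, and 12 to 711 leaving out each replicate, with 60 without MMS replicate 1, 711 without MMS replicate 2, and 16, 12 and 16 without bleomycin replicates 1, 2 and 3. Without the replicate block the counts were 3972, 5428 and 154 for the difference, MMS and bleomycin, and a random replicate block gave 215 for bleomycin. Among the 111 named genes, the block changed the call of 1, SIM1 (1.18, adjusted p = 0.0554 without it). Of these genes, the sign of the difference turned for 22 with the ACT1 5′ class, at 0.06 for DUN1, 0.35 for DIN7, 0.08 for ATG45, 0.19 for AMS1, -0.36 for ENO2, -0.37 for TDH3, -1.38 for ENO1, -0.41 for PGK1, -0.56 for RNR2, -0.77 for RNR4, -0.89 for SML1, -0.26 for PIR1, -0.77 for DSE2, -0.06 for EGT2, -1.79 for SUN4, -1.75 for SIM1, -1.08 for HTB2, -0.65 for CLN2, -0.31 for FAR1, -2.29 for BDH2, -0.30 for HO and -1.19 for RPL6B. It turned for 15 in the direct difference, at 0.26 for DIN7, 0.04 for ATG45, 0.17 for AMS1, -0.18 for RNR2, -0.03 for RNR4, -0.09 for SML1, -0.43 for DSE2, -1.0 for SUN4, -1.12 for SIM1, -0.60 for HTB2, -0.44 for CLN2, -1.83 for BDH2, -0.21 for HO, -0.18 for RPL6B and -0.20 for ENO1. With values as deposited and with median-centred values it turned for DIN7 (0.24 and 0.31), CLN2 (-0.30 and -0.23), BDH2 (-0.37 and -0.31), AMS1 (0.17 and 0.23) and HO (-0.35 and -0.29), with the covariate for DIN7 (0.03), CLN2 (-0.05) and BDH2 (-0.37), and with the pseudocount for BDH2 (-0.30). Leaving out each replicate gave -0.27 to 0.16 for DIN7, -0.25 to 0.19 for BDH2, -0.14 to 0.08 for AMS1 and -0.04 to 0.23 for HO, differences that were not called. Of 666 pairs of a named gene and a left-out replicate, 9 turned sign, 30 lost and 1 gained a call. The cause of these changes was not tested. Precision is limited by 3 days per agent, no day with both agents and no dose matched in strength.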

Other observations

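Phosphate and thiamine genes had 10 of 19 called higher and 1 lower for the difference of effects (median 0.82), with a median direct difference of 0.42, and 5 were higher without bleomycin replicate 1. PHO84, the high-affinity phosphate transporter gene, differed by 2.86 and directly by 1.38, while PHO3 had the lowest difference of all genes. Ergosterol synthesis genes gave 2 higher and 4 lower of 24 for the difference (median 0.20), with 1 to 4 higher and 1 to 6 lower when each replicate was left out, and 13 were called lower in the direct difference (median -0.74), against 0 higher by limma, also at an unadjusted p under 0.05. ERG5, the C-22 sterol desaturase gene, differed by -2.05 ± 0.273 (SE) and directly by -2.38. HMG1, of the rate-limiting step of sterol synthesis, differed by -1.19 ± 0.324 (SE; limma adjusted p = 0.0166) and directly by -1.62, and its call was lost without bleomycin replicate 2 (-1.14, adjusted p = 0.0666) or 3 (-1.06, adjusted p = 0.0659).

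Ribosome biogenesis genes had 11 of 68 called higher and 10 lower for the difference (median -0.03, and 0.06 or 0.12 with values as deposited or median-centred), with 4 higher and 30 lower directly. Without MMS replicate 2 the difference was called higher for 11 and lower for 31 (median -0.45). Mitochondrial ribosomal protein genes had 14 of 67 higher and 12 lower (median -0.08, and 0.12 or 0.18 with values as deposited or median-centred), with 6 higher and 27 lower directly (median -0.27), and 13 higher and 24 lower without MMS replicate 2. For respiration genes, 12 of 43 were called higher and 9 lower, with 5 higher and 19 lower directly, and the 9 became 14 without MMS replicate 2 and 5 without bleomycin replicate 1 or 2. Cell wall integrity genes had 9 of 28 called higher and 3 lower for the difference (median 0.70), with 6 to 11 higher and 0 to 3 lower when each replicate was left out, while the direct difference was called higher for 3 and lower for 11 (median -0.33). Of 12 hexose transporter genes, limma called 0 higher, with 1 at an unadjusted p under 0.05, and 2 lower, with 3 lower directly, and neither of the 2 was called without bleomycin replicate 1 or 2.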
